A study of Rattus norvegicus with 5 samples.

Results

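Müller glia, the main glial cells of the retina, were described in droplet single-cell RNA sequencing of rat retinas from 1 control specimen and from 1 specimen at each of 3 times of early diabetes. They were chosen by their transcripts. A barcode was taken as a member when it had at least 200 genes and at most 20% mitochondrial counts of unique molecular identifiers (UMIs), at least 8 UMIs of Rlbp1 and Glul together, at least 2 UMIs of Slc1a3 and Dkk3 together, and 0 UMIs of Trpm1, Gad1, Cldn5 and C1qa. Of 32983 barcodes within the limits on genes and mitochondrial UMIs, 1254 were members. They numbered 401 in control, 393 at 2 weeks, 307 at 4 weeks and 153 at 8 weeks.

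All animals were SD rats. The control animal received citrate buffer. Its label was 0 weeks, and no control was labelled for 2, 4 or 8 weeks. Diabetic animals were fasted and received 1 intraperitoneal injection of streptozotocin (STZ), a toxin of pancreatic beta cells, at 45 mg/kg, were taken as diabetic by their glucose on day 3, and were then fed a high fat and high sugar diet for 2, 4 or 8 weeks. Retinas were digested with trypsin and DNase, strained and freed of red cells by lysis. The rats' ages were not given in the labels used here, and control replicate 1 was not analysed here. With 1 library per group no test between groups was possible, every interval covers counting error only, and time since STZ cannot be told apart from age, diet, animal and preparation.

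Müller glia span the retina from its inner surface to the outer limiting membrane. They take up glutamate and turn it into glutamine, carry potassium and water to vessels and vitreous, recycle cone retinoids, and make lipids and growth factors for neurons and vessels. In diabetic retina they are known as a source of vascular endothelial growth factor and for changes in their channels and filaments.

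The members carried the genes known from Müller glia beyond those that chose them. Of a Müller marker list, the 8 genes that the choice did not use had UMIs in the members of each library and summed to 10174 CPM (UMIs scaled to the total of the summed cells) in control, 8076 CPM at 2 weeks, 9568 CPM at 4 weeks and 9317 CPM at 8 weeks. In all other kept barcodes they summed to 470.1, 693, 296 and 333 CPM. Of the 4 genes used for the choice, Glul (glutamine synthetase) stood at 8296, 5843, 6955 and 8138 CPM in the order control, 2, 4 and 8 weeks, which is the order of every series of 4 values below. Rlbp1, the retinaldehyde-binding protein, stood at 3502, 2355, 2671 and 3065 CPM. Both were lowest at 2 weeks. The glutamate transporter Slc1a3 stood at 2296, 1803, 1828 and 2323 CPM and Dkk3, a secreted relative of Wnt inhibitors, at 4097, 3479.6, 2896 and 4435 CPM. The water channel Aqp4, which was not used, stood at 984, 859, 648 and 891 CPM. The potassium channel Kcnj10 was sparse at 13.1, 7.76, 8.39 and 11.9 CPM.

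By the smallest ratio to other kept barcodes over the 4 libraries, the leading genes were Sox9, Sox2, Espn, Penk, Dio1, Car14, Slc14a1, Tnfaip6, Hhatl, Agt, Agmo, Cldn9, Gpr37l1, Efemp1 and Mlc1. They are given as a description, since the members were selected on RNA of the same cells. Sox9, a glial transcription factor, stood at 470, 559, 558 and 459 CPM in members and 5.96, 6.64, 5.28 and 5.63 CPM in other barcodes. Penk, which encodes the opioid precursor proenkephalin, stood at 2695, 2045, 2559 and 2406 CPM against 35.4, 20.0, 18.1 and 19.3 CPM. Agt, the precursor of angiotensin, stood at 655, 592, 951 and 527 CPM against 9.21, 7.09, 8.48 and 5.96 CPM. Slc14a1, a urea transporter, stood at 109, 108, 56.0 and 133 CPM and Mlc1, a membrane protein of glial endfeet, at 952, 837, 839 and 986 CPM. The thyroid hormone deiodinase Dio1 stood at 286, 192, 278 and 276 CPM. The levels of the leading genes differed widely, down to 26.9, 11.2, 18.7 and 23.9 CPM for Gpr37l1, a receptor of glia.

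Kdr, the main receptor for vascular endothelial growth factor and an endothelial marker, was a broad transcript of the members. It stood at 2647, 3180.4, 2227 and 3166 CPM in members and 56.0, 56.0, 24.4 and 33.8 CPM in other barcodes, with log2 ratios to control of 0.26, -0.25 and 0.26. After each barcode was thinned to 1500 UMIs, 95.8, 96.7, 95.3 and 96.4% of members had a Kdr UMI, against 1.16, 0.980, 0.414 and 0.607% of rods. The shares in members were alike in the 4 libraries. Cldn5 was at 0 by the choice of members, the endothelial genes Cdh5, Tek, Egfl7 and Esam were at or near 0, and Flt1, the other such receptor, stood at 177, 202, 174 and 153 CPM in members and 124, 261, 55.5 and 59.8 CPM in other barcodes.

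Markers of other cells differed between the libraries' members. The rod list (11 of its 12 genes were in the files) summed to 3745, 15591, 6179 and 5835 CPM in members and to 29394, 50838, 48588 and 35783 CPM in other barcodes. The median member had 0.119, 0.771, 0.150 and 0.148% rod marker UMIs, so rod RNA was highest at 2 weeks. For microglia the list summed to 2.80 to 12.4 CPM with Tmem119 at 0. Its C1qa, like Gad1 of the amacrine list below, was at 0 by the choice of members. Of the astrocyte genes Pax2 and Aldh1l1 had 0 UMIs, and S100b and Cd44 made up nearly all of the list's 634 to 905 CPM. Pax2 and Aldh1l1 were also at or near 0 in other kept barcodes, so their absence cannot tell members from astrocytes. Haemoglobin RNA made up 1.16, 0.673, 0.0122 and 0.0326% of member UMIs, with 15632 UMIs in 1 control member and 7525 in 1 member at 2 weeks. The summed lists of other neurons and mural cells also differed, at 16.5, 138, 18.7 and 167 CPM for amacrine cells, 54.4, 160.4, 118 and 451 CPM for cones, 51.0, 286, 41.0 and 45.7 CPM for horizontal cells, 16.5, 139.7, 22.4 and 9.94 CPM for ganglion cells and 68.2, 187, 73.7 and 83.5 CPM for pericytes and smooth muscle. Leaving aside the rod and endothelial lists, members with at least 20 UMIs of another cell type's list numbered 2, 10, 2 and 3.

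Members were richer in UMIs than the average barcode. In all, member UMIs numbered 1452222, 1159910, 1072267 and 502850. The median member had 3453, 2694, 3390 and 3113 UMIs and 1560, 1304, 1537 and 1460 genes. The members' median mitochondrial share was 2.02, 4.58, 3.46 and 3.45%. At 8 weeks there were the fewest cells and UMIs, so ratios of that library have the widest intervals. Pairs of libraries shared 8 to 43 kept barcode sequences, and no member barcode was shared.

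Müller glia made up 5.42% (exact 95% interval 4.91 to 5.96) of kept barcodes in control, 3.12% (2.82 to 3.43) at 2 weeks, 3.65% (3.26 to 4.07) at 4 weeks and 3.35% (2.85 to 3.92) at 8 weeks. The threshold weighed unequally on the libraries. Rlbp1 and Glul UMIs per member had medians of 38, 22, 31 and 33. Just inside the limit, 3, 18, 3 and 2 members had 8 UMIs, and just outside it 5, 14, 5 and 5 barcodes had 7 UMIs. The genes required to be 0 left out 44, 36, 13 and 32 barcodes, and the mitochondrial limit left out 16, 19, 19 and 13 that passed the other conditions. Over the alternative limits tried, the log2 ratio of the share to control ran from -1.10 to -0.44 at 2 weeks, from -0.60 to -0.49 at 4 weeks and from -0.93 to -0.62 at 8 weeks. Shares of barcodes depend on all cells recovered, so fewer Müller glia and more of other cells cannot be told apart.

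To compare genes, UMIs were summed over the members of each library, given as CPM and set against control as a log2 ratio with an exact 95% counting interval. A gene was measured with a mean of at least 20 CPM and at least 30 UMIs over the pair, and called higher or lower at 1.5-fold or more with an interval that left out 0. The mean takes in the library where a gene is high, so some low genes were measured only through that library. At 2 weeks 519 of 6084 measured genes (8.53%) were called higher and 351 (5.77%) lower. At 4 weeks 479 of 6071 (7.89%) were higher and 341 (5.62%) lower. At 8 weeks 320 of 6055 (5.28%) were higher and 121 (2.0%) lower. The split depended on the scaling: with TMM factors, which align the bulk of genes, 427 were higher and 475 lower at 2 weeks, 405 and 397 at 4 weeks, and 175 and 238 at 8 weeks. The median of all genes was 0.05, 0.05 and 0.07 at the 3 times, and -0.02, 0.00 and -0.05 with TMM. The 3 comparisons share 1 control library, so their calls are not independent. The rods used for side-by-side values were 19054 barcodes rich in rod marker genes.

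Genes of antigen presentation in the RT1 region, the rat major histocompatibility complex, led the higher genes. RT1-T24-4 had 7, 47, 64 and 39 UMIs in 7, 43, 51 and 30 members, or 4.82, 40.5, 59.7 and 77.6 CPM. The control library was far below each diabetic library, with log2 ratios of 2.99 (1.92 to 4.46), 3.54 (2.50 to 5.00) and 3.93 (2.83 to 5.41). RT1-CE5 stood at 14.5, 50.9, 36.4 and 105 CPM, with 1.79 (1.07 to 2.61), 1.32 (0.53 to 2.17) and 2.85 (2.11 to 3.67). At 4 weeks its call was lost in thinned members (1.08). RT1-S3 stood at 67.5, 141, 179 and 241 CPM, with 1.06 (0.70 to 1.44), 1.40 (1.05 to 1.77) and 1.83 (1.44 to 2.23). In rods the same genes had ratios of -0.20, -0.32 and 0.09 (RT1-T24-4), -0.24, -0.33 and -0.13 (RT1-CE5) and -0.63, -1.35 and -1.41 (RT1-S3). Rods hardly held RT1-T24-4 or RT1-S3, the latter at 3.25, 2.12, 1.25 and 1.15 CPM, so the rod ratios of both compare very low levels. In all other kept barcodes RT1-T24-4 stood at 12.1, 61.9, 23.4 and 26.1 CPM. It was thus also higher there in each diabetic library than in control, and at 2 weeks above the members. RT1-S3 stood at 41.6, 43.5, 18.003 and 19.6 CPM in those barcodes, below control at 4 and 8 weeks but not at 2 weeks. B2m, the shared light chain of these molecules, stood at 1051, 1133, 1317 and 1474 CPM in members and was not called at any time. In members RT1-A1 stood at 55.1, 155, 70.9 and 314 CPM. The level of RT1-A2 was 228, 130.2, 504 and 266 CPM. These 2 classical genes, given after their values were seen, parted at 2 weeks and were both above control in CPM at 4 and 8 weeks. Their intervals are not given here. The small differences, RT1-A1 at 4 weeks and RT1-A2 at 8 weeks, may lie within counting error. RT1 genes are near-identical copies that differ between rat haplotypes, so the split of UMIs among them is uncertain, and the part of the animals' haplotypes in these ratios was not tested.

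A group of metabolic and structural genes was also called higher at all 3 times. Etnppl, a lyase of phosphoethanolamine known from astrocytes, stood at 23.4, 48.3, 101 and 59.7 CPM, with log2 ratios of 1.04 (0.40 to 1.70), 2.09 (1.54 to 2.71) and 1.35 (0.59 to 2.10). Prodh1, the first enzyme of proline breakdown, stood at 20.0, 33.6, 63.4 and 63.6 CPM (0.75, 1.65 and 1.67). Bfsp2, an intermediate filament protein of lens fibres, stood at 29.6, 62.1, 93.3 and 63.6 CPM (1.06, 1.65 and 1.11), and Pdlim4, an actin-associated adaptor, at 29.6, 58.6, 86.7 and 71.6 CPM (0.98, 1.54 and 1.28). For all 4 genes the control library was the lowest, and for all but Prodh1 the 4-week library was the highest. The 2-week call of Prodh1 was lost under several alternatives (0.53 in thinned members), as was the 8-week call of Etnppl in thinned members (0.69).

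Gal, which encodes the neuropeptide galanin, was higher at 4 and 8 weeks. It stood at 70.2, 82.8, 244 and 175 CPM, with log2 ratios of 0.24 (-0.18 to 0.65), 1.79 (1.46 to 2.14) and 1.32 (0.89 to 1.74). In thinned barcodes 9.09, 10.4, 25.2 and 20.4% of members had a Gal UMI, against 0.0831, 0.0426, 0 and 0% of rods, where the zeros allow up to 0.207 and 0.304% of thinned rods with a UMI (3 counts of the total). Thus the 2 later libraries had both a higher Gal level in CPM and a larger share of members with a Gal UMI. The 8-week library, with fewer members, had 88 Gal UMIs against 102 in control. Penk, the other neuropeptide gene named here, was not called at any time (-0.40, -0.07 and -0.16). The 2-week library did not differ from control in Gal beyond counting error.

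Other genes were called higher in 1 or 2 of the diabetic libraries. Lmcd1, a LIM-domain cofactor of transcription, stood at 14.5, 13.8, 81.1 and 7.95 CPM and was higher at 4 weeks by 2.46 (1.79 to 3.25). Tpbg, a cell-surface inhibitor of Wnt signals, stood at 28.9, 56.9, 94.2 and 33.8 CPM and was higher at 2 and 4 weeks (0.97 and 1.69). Meis3, a homeobox gene, stood at 15.1, 22.4, 48.5 and 17.9 CPM and was higher at 4 weeks (1.66, 0.93 to 2.47). Slc26a7, an anion exchanger, stood at 48.9, 116, 45.7 and 87.5 CPM, and Ulk1, a kinase that starts autophagy, at 17.2, 44.0, 46.6 and 19.9 CPM. Of these Slc26a7 was called at 2 and 8 weeks and Ulk1 at 2 and 4 weeks. Lrp2, an endocytic receptor, stood at 15.1, 35.3, 20.5 and 19.9 CPM and was called at 2 weeks (1.21). At 8 weeks Chst1, a sulphotransferase, stood at 15.8, 24.1, 27.0 and 43.8 CPM and Tnfrsf12a, the receptor for TWEAK, at 16.5, 14.7, 19.6 and 41.8 CPM, with the 8-week library the highest in both. Lmcd1, Meis3, Lrp2 and Tnfrsf12a reached the mean of 20 CPM only with the library in which they were called.

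Lower genes included receptors, adhesion molecules and carriers. Ednrb, the endothelin receptor B, stood at 147, 51.7, 80.2 and 75.6 CPM and was lower at all 3 times, with log2 ratios of -1.50 (-1.95 to -1.09), -0.87 (-1.26 to -0.51) and -0.95 (-1.50 to -0.46). Tf, the iron carrier transferrin, stood at 177, 71.6, 92.3 and 99.4 CPM (-1.30, -0.93 and -0.82), with every diabetic library below control. When barcodes with up to 40% mitochondrial UMIs were kept, its 4-week ratio was 0.12. Hhatl, a relative of palmitoyl transferases and a leading Müller gene, stood at 753, 300.0, 472 and 567 CPM and was lower at 2 and 4 weeks (-1.33 and -0.67). Cldn23, a tight junction protein, stood at 163, 60.3, 126 and 61.6 CPM and was lower at 2 and 8 weeks (-1.43 and -1.38). Dpysl2, which binds tubulin, stood at 31.0, 29.3, 11.2 and 11.9 CPM and was lower at 4 and 8 weeks (-1.43 and -1.28). Nectin3, an adhesion molecule, stood at 22.04, 20.7, 5.60 and 31.8 CPM and Vasn, an inhibitor of TGF-beta, at 42.7, 43.1, 14.0 and 65.6 CPM. Both were low at 4 weeks alone. Gabrb1, a GABA receptor subunit, stood at 31.0, 24.1, 16.8 and 9.94 CPM, and Sdk2, an adhesion protein of synapses, at 28.2, 19.0, 28.9 and 5.97 CPM, with the 8-week library the lowest in both and Gabrb1 also called at 4 weeks. Some of these low values rest on few UMIs. At 8 weeks Gabrb1 had 5 UMIs (interval -3.33 to -0.31), Sdk2 had 3 (-4.58 to -0.59) and Dpysl2 had 6 (-2.90 to -0.14). At 4 weeks Nectin3 had 6 UMIs. The plot of gene levels shows Ednrb, Tf, Hhatl and Cldn23 beside genes that were higher.

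**Figure D1:**
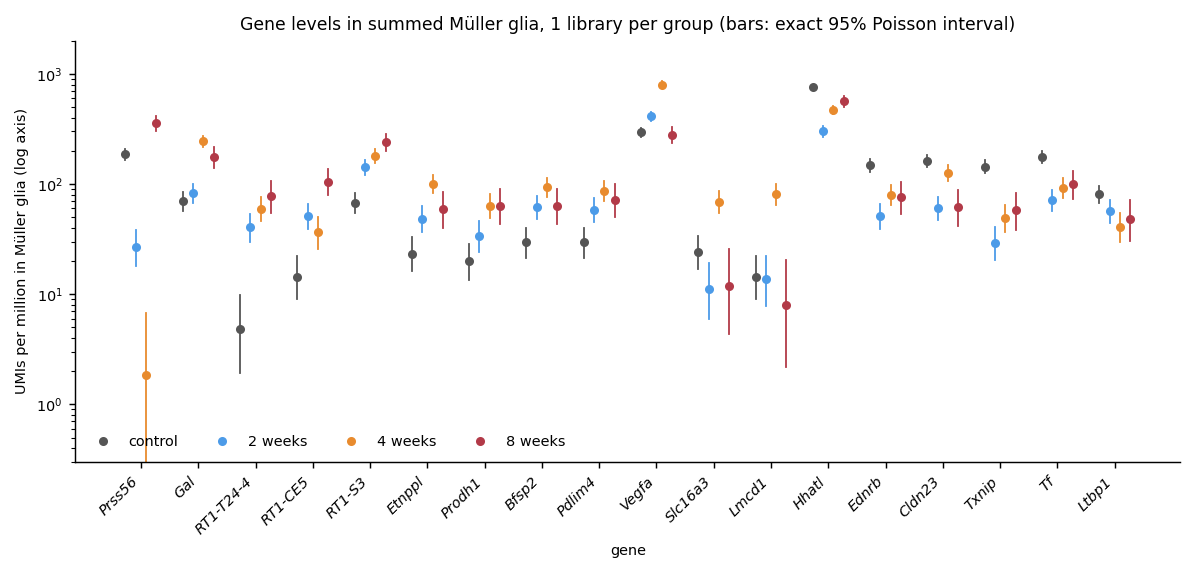
CPM (log axis) of 18 genes in the summed Müller glia of the 4 libraries, with exact 95% Poisson intervals as bars. RT1-T24-4 lies lowest in control, Prss56 lies near the bottom at 4 weeks and highest at 8 weeks, and Vegfa is highest at 4 weeks.

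Targets of hypoxia-inducible factor, which binds the motif ACGTG in the DNA of genes answering to low oxygen, were higher in part and none was lower. Of 12 measured genes 2 were called higher at 2 weeks, 4 at 4 weeks and, of 11, 2 at 8 weeks, beside 8.53, 7.89 and 5.28% higher over all genes. The list's medians were 0.28, 0.46 and 0.21, beside 0.05, 0.05 and 0.07 for all genes and -0.48, -0.32 and 0.03 for the list in rods. In thinned members the 2-week median was -0.039. Called at 4 weeks were Vegfa, Hk2, Ankrd37 and P4ha2. P4ha2 reached the mean of 20 CPM only with the 4-week library, and Ankrd37 only with the 4- and 8-week libraries, in which they were called. The share of all windows of 250 bases before a gene's start (RefSeq, build GRCr8) that held ACGTG on either strand was 16.6% (5547 of 33469), and of the 11 measured hypoxia genes with a window 7 held it. Ankrd37 and P4ha2 held it, while the windows of Vegfa and Hk2 did not. Bnip3, Ddit4, Slc2a1, Higd1a and Mxi1, which were not called at 4 weeks, held it too, so the motif did not run with the calls. A match is a description of letters, not of binding. The windows of the called genes with a match are shown because they carry that motif, in capitals, with 5′ to the left and the last base just before the start. Ankrd37 lies at chr16:53001257-53001506 on the + strand, with the motif's first base 236, 23 and 22 bases before the start. In the last pair, 1 on each strand, the matches overlap. P4ha2 lies at chr10:38743644-38743893 on the + strand, with first bases at 133 and 41.
Ankrd37: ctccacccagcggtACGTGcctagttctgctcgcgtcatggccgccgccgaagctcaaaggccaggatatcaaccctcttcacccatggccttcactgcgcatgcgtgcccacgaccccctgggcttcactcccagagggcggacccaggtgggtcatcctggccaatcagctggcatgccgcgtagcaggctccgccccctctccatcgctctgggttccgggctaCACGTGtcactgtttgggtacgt
P4ha2: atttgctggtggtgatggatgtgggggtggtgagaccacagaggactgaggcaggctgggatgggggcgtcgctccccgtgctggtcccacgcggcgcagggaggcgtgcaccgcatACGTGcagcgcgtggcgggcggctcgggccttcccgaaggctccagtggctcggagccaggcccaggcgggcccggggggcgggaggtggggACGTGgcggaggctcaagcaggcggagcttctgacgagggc

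Vegfa, the growth factor for vessels, stood at 296, 411, 798 and 280.4 CPM, with log2 ratios of 0.47 (0.28 to 0.67), 1.43 (1.26 to 1.60) and -0.08 (-0.36 to 0.20). In thinned barcodes 31.2, 41.3, 63.1 and 33.6% of members had a Vegfa UMI, so the 4-week library was high in the number of cells as well as in UMIs. In rods its ratios were -2.06, -0.98 and -0.50. Ankrd37, a small ankyrin protein, stood at 11.0, 13.8, 33.6 and 31.8 CPM and was higher at 4 and 8 weeks by 1.58 (0.72 to 2.56) and 1.53 (0.44 to 2.62) on the log2 scale. P4ha2, a prolyl hydroxylase of collagen, stood at 12.4, 22.4, 34.5 and 15.9 CPM and was higher at 4 weeks (1.46, 0.63 to 2.38). The hexokinase gene Hk2 stood at 184, 327, 305 and 290.3 CPM but at 2287, 1447, 2909 and 2542 CPM in other barcodes. All 3 of its calls were lost when the library profile (the RNA of the whole library, in the amount that rod markers in the members allow) was subtracted, and at 8 weeks 32.2% of its UMIs lay in 1 member. Ndrg1 stood at 27.5, 88.8, 32.6 and 37.8 CPM, with 35.0% of its 2-week UMIs in 1 member.

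Genes of energy metabolism were called higher in part. Of 13 mitochondrially encoded genes 10, 5 and 10 were higher and none lower, with medians of 0.97, 0.52 and 0.65 (rods 0.84, -0.13 and 0.22). These genes move with the mitochondrial share of the members given above, and their 8-week median was -0.42 when the library profile was subtracted. Of 25 nuclear genes of the respiratory chain 8 were higher at 2 weeks and none later, with medians of 0.49, 0.12 and 0.18. At 2 weeks this median was 0.20 with the profile subtracted, and rods, whose RNA was most abundant in the members of that time, had 0.75. The part of rod RNA in this median was not tested. Glycolysis genes numbered 4 higher and 1 lower at 2 weeks, 4 and 0 at 4 weeks, and 1 and 1 at 8 weeks, of 17, with medians of 0.07, 0.28 and 0.10 (rods 0.57, 0.54 and 0.05). Over all genes 8.53, 7.89 and 5.28% were higher. Among the 4 at 2 weeks, Pkm, a pyruvate kinase, reversed with the profile subtracted (-3.62). Aldoa, an aldolase, stood at 972, 1773, 1521 and 1201 CPM (0.87 and 0.65 at 2 and 4 weeks), and Ldha, a lactate dehydrogenase, at 649, 1198, 985 and 720 CPM (0.88 and 0.60). Both were lowest in control. Slc16a3, which exports lactate, stood at 24.1, 11.2, 69.0 and 11.9 CPM. It was lower at 2 weeks (-1.07, -2.15 to -0.15) and higher at 4 weeks (1.51, 0.92 to 2.14), and the 2-week call was lost under several alternatives. Of glycogen genes, Pygm, a glycogen phosphorylase, stood at 18.6, 19.8, 40.1 and 43.8 CPM and was called higher at 4 and 8 weeks (1.10 and 1.24).

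**Figure D2:**
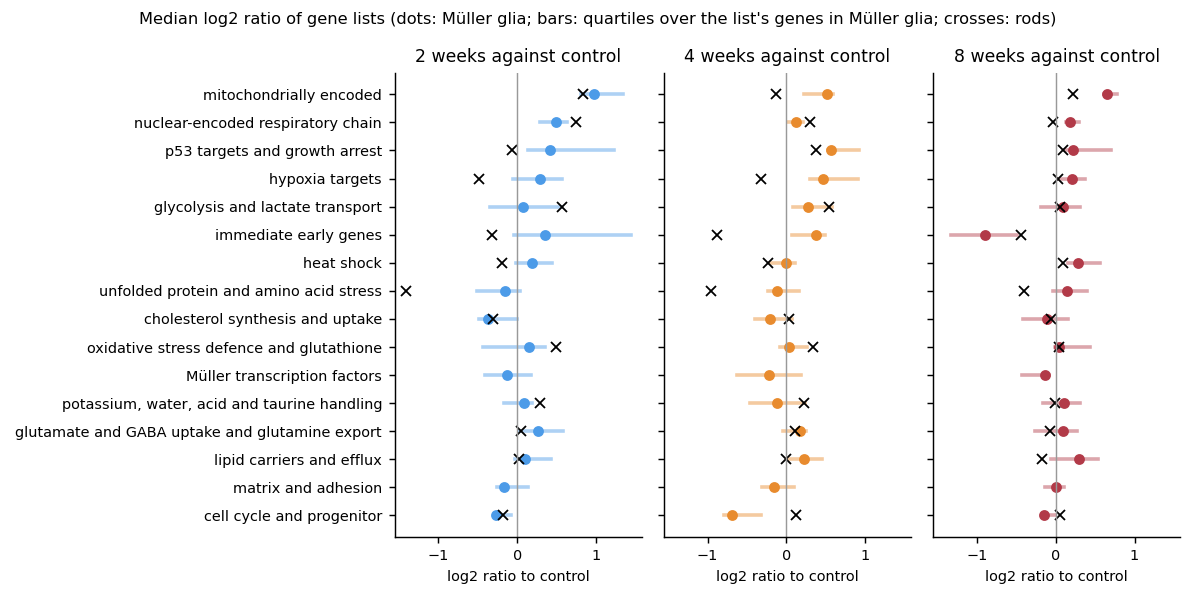
Median log2 ratio to control of gene lists in Müller glia (dots, with quartiles over the list's genes as bars) and in rods (crosses), 1 panel per diabetic time. Mitochondrially encoded genes lie above 0 in Müller glia in each panel, and immediate early genes lie above 0 at 2 and 4 weeks and below 0 at 8 weeks.

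Immediate early genes, the transcription factors and phosphatases that respond within minutes to stimuli, were in part higher at 2 weeks and mostly lower at 8 weeks. Of 11 measured genes 5 were higher and 1 lower at 2 weeks, 1 was higher at 4 weeks, and 8 were lower at 8 weeks (2.0% of all genes were), with medians of 0.35, 0.37 and -0.90 (rods -0.33, -0.88 and -0.43). Of all genes 8.53% were higher and 5.77% lower at 2 weeks, and 7.89% were higher at 4 weeks. Fos stood at 501, 1074, 648 and 268 CPM, with log2 ratios of 1.10 (0.97 to 1.23), 0.37 (0.22 to 0.52) and -0.90 (-1.18 to -0.63). Egr1 stood at 103, 326, 177 and 29.8 CPM, with log2 ratios to control of 1.66 (1.39 to 1.95), 0.79 (0.47 to 1.11) and -1.74 (-2.66 to -1.01). Both were highest at 2 weeks and lowest at 8 weeks. Junb stood at 140.5, 539, 187 and 87.5 CPM (1.94, 0.42 and -0.67) and Btg2, which restrains proliferation, at 116, 374, 173 and 93.5 CPM (1.68, 0.57 and -0.31). Fosb stood at 209, 250.02, 214 and 67.6 CPM and was called at 8 weeks alone (-1.61, -2.19 to -1.12). Dusp1, a phosphatase of MAP kinases, stood at 66.8, 155, 89.5 and 29.8 CPM (1.21, 0.42 and -1.12). At 8 weeks Junb was 0.26 in thinned members and Dusp1 was 1.64 with the library profile subtracted, so the direction of these 2 depended on the processing.

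Few cells carried most of this RNA. The median thinned member had 1 UMI of the list in every library, and the members at or above the 90th percentile held 60.7, 63.6, 70.1 and 64.5% of its UMIs. The variance of the list's UMIs per thinned member was 21.9, 22.6, 28.4 and 14.0 times the mean. At 8 weeks 1 member held 40% of the Fos UMIs and 60% of the Egr1 UMIs. The higher and lower sums were thus set by a minority of members.

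**Figure D3:**
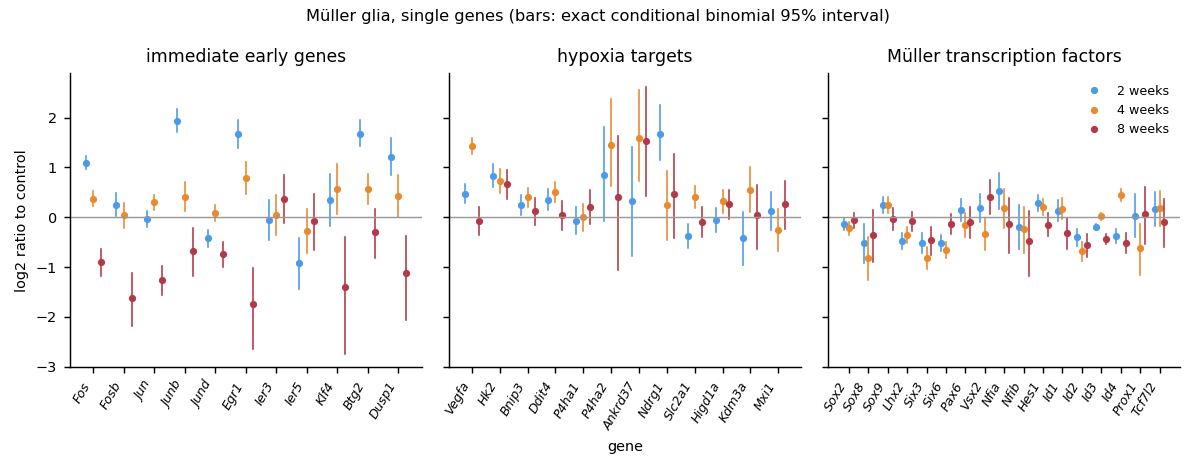
Log2 ratio to control, with exact 95% counting intervals, of single measured genes of the immediate early, hypoxia and Müller transcription factor lists at the 3 diabetic times. Egr1 and Junb lie highest at 2 weeks, Vegfa and P4ha2 at 4 weeks, and Six3 lies below 0 at all 3 times.

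Homeostatic genes of Müller glia had some calls. The background of all genes was 8.53, 7.89 and 5.28% higher and 5.77, 5.62 and 2.0% lower at 2, 4 and 8 weeks. For glutamate and GABA uptake and glutamine export 1 of 8, 0 of 7 and 2 of 8 genes were called higher and none lower. Calls at 2 and 8 weeks included Slc6a9, a glycine transporter of amacrine cells and on their marker list, at 11.7, 66.4, 4.66 and 27.8 CPM, with 35.1% of its UMIs at 2 weeks and 50.0% at 8 weeks in 1 member. Its 8-week ratio of 1.26 was -1.33 without the top Scrublet scores. The glutamine exporter Slc38a3 stood at 820.1, 695, 1006 and 875 CPM and was not called. Slc1a2, a glutamate transporter, stood at 28.9, 30.2, 23.3 and 49.7 CPM and was higher at 8 weeks (0.79, 0.01 to 1.53). Of 12 genes for potassium, water, acid and taurine 1 was higher at 2 weeks, 2 were lower at 4 weeks, and 1 was higher and 1 lower at 8 weeks. Aqp4 was lower at 4 weeks (-0.60, -0.74 to -0.47), a call lost in thinned members (-0.54) and without the top Scrublet scores (-0.55). Kcnj13, a potassium channel, stood at 28.2, 29.3, 10.3 and 23.9 CPM and was lowest at 4 weeks (-1.41, -2.57 to -0.47), a call lost in thinned members (-0.98). Car14, a membrane carbonic anhydrase, stood at 500, 611, 389 and 857 CPM and was higher at 8 weeks (0.78, 0.60 to 0.95). Of 8 retinoid genes Aldh1a1, a maker of retinoic acid, stood at 42.0, 58.6, 51.3 and 101 CPM and was higher at 8 weeks (1.27, 0.71 to 1.83), while Rdh10, a retinol dehydrogenase, was lower at that time (-0.78, -1.43 to -0.22).

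Transcription factors that mark Müller glia had lower calls at 4 weeks. None of 17 measured genes was called at 2 or 8 weeks, and 5 were lower and none higher at 4 weeks, with medians of -0.13, -0.22 and -0.14. Ratios below 0 numbered 9, 10 and 15 of 17, and the difference between the times was not tested. The background of lower calls at 4 weeks was the 5.62% given above. Six3, an eye-field homeobox gene, stood at 380.1, 266, 216 and 274 CPM, with log2 ratios to control of -0.51 (-0.72 to -0.31), -0.81 (-1.04 to -0.59) and -0.47 (-0.75 to -0.20). Six6, its relative, stood at 628, 440, 399 and 573 CPM and Sox8 at 107, 75.01, 60.6 and 83.5 CPM, with -0.65 (-0.82 to -0.49) and -0.82 (-1.27 to -0.40) at 4 weeks. Id2, an inhibitor of helix-loop-helix factors, stood at 532, 403, 331 and 360 CPM (-0.68 at 4 weeks). For these genes the 4-week library was the lowest. Prox1 was the fifth (-0.63), and its call was lost in thinned members (-0.23). Sox2 stood at 907, 828, 777 and 869 CPM and Pax6 at 249.96, 275, 225 and 233 CPM, and these, like Sox9, were not called at any time.

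Genes of the cell cycle were sparse, and 5 of 17 were measured. The background of lower calls was 5.62% at 4 weeks and 2.0% at 8 weeks. At 4 weeks 3 were lower, namely Ccnd1 (-1.10), Ccnd3 (-0.69) and Cdkn1b (-0.79), the last an inhibitor of the cycle at 496, 552, 286 and 523 CPM. At 8 weeks its relative Cdkn1c was lower (-1.28, -3.10 to -0.05). For p53 targets and growth arrest, 5 of 11 were higher at 2 weeks, 4 at 4 weeks and 1 at 8 weeks, and 1 was lower at 8 weeks, with medians of 0.42, 0.57 and 0.22. Over all genes 8.53, 7.89 and 5.28% were higher. Cdkn1a, an inhibitor of the cell cycle called higher at 2 and 4 weeks, turned at 2 weeks to -4.81 with the profile subtracted and to -0.047 in thinned members. Gadd45b, a stress sensor, stood at 28.2, 106, 77.4 and 41.8 CPM, with log2 ratios to control of 1.90 (1.39 to 2.46), 1.45 (0.90 to 2.03) and 0.58 (-0.27 to 1.36), and Gadd45g at 42.7, 196, 63.4 and 63.6 CPM (2.19, 0.57 and 0.59). Both were highest at 2 weeks. Mdm2, which marks p53 for breakdown, was the gene lower at 8 weeks (-1.37, -2.72 to -0.38), and Bcl2l1, an inhibitor of apoptosis, the gene higher (1.04, 0.27 to 1.79).

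Reactivity genes of glia had 2 higher and 0 lower of 10 at 2 weeks, 2 and 1 of 10 at 4 weeks, and 3 and 0 of 9 at 8 weeks, beside 8.53, 7.89 and 5.28% higher over all genes, with medians of 0.23, -0.01 and 0.45. Cebpd, a transcription factor of the acute phase, stood at 240, 535, 315 and 400 CPM and was higher at 2 and 8 weeks (1.16 and 0.74). Timp1, an inhibitor of matrix proteases, stood at 27.5, 37.1, 66.2 and 55.7 CPM and was higher at 4 and 8 weeks (1.26 and 1.02), with 31.0% of the 4-week UMIs in 1 member. Cd44, a hyaluronan receptor, was lower at 4 weeks (-0.75, -1.08 to -0.43). Vim, the glial filament, stood at 1926, 1558, 1810.2 and 1836 CPM and was not called, and Gfap, the filament of reactive glia, stood at 6.89, 13.8, 37.3 and 37.8 CPM from 4, 6, 7 and 7 members. It was measured and called higher at 4 weeks (2.39), with 50.0% of its UMIs in 1 member. In complement and innate immunity 7 of 29 genes were measured. The alarmin Il33 stood at 1707, 1384, 1122 and 1486 CPM and was lower at 4 weeks (-0.61). The chemokine Cxcl14 stood at 157, 99.1, 75.5 and 91.5 CPM (-0.66, -1.05 and -0.77), and its 2- and 8-week calls were lost in thinned members.

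Among receptors and their feedback 2 of 12 were higher and 1 lower at 2 weeks, 2 were lower at 4 weeks, and 1 was higher and 1 lower at 8 weeks. Over all genes 8.53, 7.89 and 5.28% were higher and 5.77, 5.62 and 2.0% lower at 2, 4 and 8 weeks. Beside Ednrb, the cytokine receptor chain Il6st was lower at 4 weeks (-0.80, -1.59 to -0.09). Growth factors had 5 of 20 genes measured, and at 4 weeks Vegfa and Mt3 (0.63) were higher and Cntf, a neurotrophic cytokine, lower (-0.78). Matrix and adhesion had 1 higher and 1 lower of 13 at 2 and 4 weeks and 1 lower at 8 weeks. Col9a1, a chain of collagen IX, stood at 266, 474, 468 and 286 CPM and was higher at 2 and 4 weeks by 0.83 (0.64 to 1.02) and 0.81 (0.62 to 1.01), with 0.11 at 8 weeks. Ltbp1, a matrix protein that binds latent TGF-beta, stood at 80.6, 56.9, 41.0 and 47.7 CPM (-0.50, -0.96 and -0.73) and was called lower at 4 and 8 weeks.

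Genes of cholesterol synthesis and uptake had 0 higher and 2 lower of 17 at 2 weeks, none called at 4 weeks and 1 higher at 8 weeks, with medians of -0.38, -0.21 and -0.12. Those lower at 2 weeks were Sc5d (-1.05, -1.50 to -0.64), which acts late in the pathway, and Idi1 (-0.90, -1.65 to -0.22), an isomerase. At 8 weeks Lss, the lanosterol synthase, was higher (1.20, 0.11 to 2.24). Of 10 lipid carriers 2, 2 and 1 were higher and none lower. Beside the counts of these 2 lists, 8.53, 7.89 and 5.28% of all genes were higher and 5.77, 5.62 and 2.0% lower. Apoe, the main lipid carrier of glia, stood at 21333, 22466, 32598 and 27215 CPM and was higher at 4 weeks (0.61, 0.59 to 0.63), with 0.57 under TMM scaling, which is short of 1.5-fold. Fabp5, a fatty acid carrier, stood at 22.7, 153, 93.3 and 41.8 CPM (2.73, 2.02 and 0.89), beside 245, 531, 711 and 352 CPM in other barcodes and rod ratios of 1.05, 1.16 and 0.36.

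Stress lists had some calls in both directions. Of all measured genes, 8.53, 7.89 and 5.28% were higher and 5.77, 5.62 and 2.0% lower at 2, 4 and 8 weeks. Unfolded protein and amino acid stress had 0 higher and 3 lower of 17 at 2 weeks, 1 and 2 at 4 weeks, and 1 and 0 at 8 weeks, with medians of -0.15, -0.12 and 0.15 against -1.41, -0.95 and -0.40 in rods. The difference between the 2 cell types was not tested. Phgdh, the first enzyme of serine synthesis, stood at 136, 140, 226 and 179 CPM and was higher at 4 weeks (0.73, 0.45 to 1.01), and Herpud1 was lower at 2 weeks (-0.65, -0.88 to -0.43). Of 12 heat shock genes 1 was higher and 1 lower at 2 weeks, 2 were lower at 4 weeks and 2 were higher at 8 weeks. The gene higher at 2 weeks, Hspa1b, reversed with the profile subtracted (-4.38). Of 21 genes of oxidative stress defence 1 was higher and 1 lower at 2 and at 4 weeks and none was called at 8 weeks. Prdx6, a peroxiredoxin, stood at 329, 157, 242 and 263 CPM and was lower at 2 weeks (-1.07, -1.32 to -0.82). Of 8 iron genes 1 was lower at each time and 1 higher at 4 weeks. Txnip, a thioredoxin inhibitor induced by glucose, stood at 144, 29.3, 49.4 and 57.7 CPM (-2.28, -1.53 and -1.30) beside rod ratios of 2.82, -2.30 and -0.95.

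Prss56, a serine protease tied to eye size, came from a subset of members whose size differed between libraries. It stood at 187, 26.7, 1.87 and 356 CPM, with log2 ratios of -2.78 (-3.39 to -2.26), -6.33 (-9.70 to -4.78) and 0.93 (0.65 to 1.21). The 4-week value rests on 2 UMIs. The 2- and 4-week libraries were low and the 8-week library the highest. Of members, 61 of 401 in control (15.2%, exact 95% interval 11.8 to 19.1) had a UMI, 12 of 393 at 2 weeks (3.05%, 1.59 to 5.27), 2 of 307 at 4 weeks (0.651%, 0.0790 to 2.33) and 19 of 153 at 8 weeks (12.4%, 7.64 to 18.7). In members thinned to 1500 UMIs the shares were 11.7, 2.73, 0 and 9.49%, and no thinned rod had a UMI. The limit that a count of 0 allows (3 counts of the total) is 1.01% of thinned members at 4 weeks, which limits cells with a UMI at this depth and not cells expressing the gene. The UMIs were unevenly held: the 5 richest members had 43.2% of them in control, 77.4% at 2 weeks and 75.4% at 8 weeks, and the most in 1 member was 29, 7, 1 and 49 UMIs. Shares of members with a UMI in control and at 8 weeks had overlapping intervals.

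Genes that ran with Prss56 were sought in control and then read in the other libraries, with the cells of a library sharing 1 source. Control gave 29 genes with at least 2-fold higher levels (interval above 0, at least 30 UMIs) in members with a Prss56 UMI than in those without. The number of genes screened, and the number lower with Prss56, are not given here. The intervals were not corrected for the number of genes screened. How many of the 29 could come from counting error alone was not tested. At 2 weeks 19 of them had at least 30 UMIs, 13 of these were above 0 and 3 had an interval above 0, and at 8 weeks the counts were 4, 3 and 2. The counts above 0 are raised by the 0.5 added to each sum, since members with Prss56 held few UMIs. At 2 weeks Sik3, for one, stood at 27.3 CPM with Prss56 and 36.5 CPM without, yet had a ratio of 0.15. Erbb2 and Dnph1 were also lower in CPM with Prss56 but counted as above 0. The intervals do not use the 0.5. The 3 genes given were chosen after their values were seen. Dapl1, a death-associated protein relative, stood at 682 CPM in control members with Prss56 and 196 CPM in those without (1.80, 1.501 to 2.09). At 2 weeks it stood at 2646 and 444 CPM (2.58, 2.25 to 2.89) and at 8 weeks at 2662 and 362 CPM (2.88, 2.57 to 3.19). Pmepa1, a feedback inhibitor of TGF-beta signals, stood at 682 and 339.98 CPM in control (1.01, 0.73 to 1.27), 1064 and 596 CPM at 2 weeks (0.85, 0.33 to 1.30) and 864 and 371 CPM at 8 weeks (1.23, 0.77 to 1.65). Foxp2, a forkhead transcription factor, stood at 66.6 and 16.5 CPM in control (2.02, 0.97 to 3.03), with wide intervals above 0 at 2 and 8 weeks, both from fewer than 30 UMIs. Pcdhb9, a protocadherin, was the other gene with an interval above 0 at 2 weeks (2.24, 0.77 to 3.31). The 4-week library, with 2 such members, could not be read. A Gal UMI was seen in 8.20% of control members with Prss56 and 16.2% of those without, in 16.7 and 16.3% at 2 weeks, and in 5.26 and 29.9% at 8 weeks.

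**Figure D4:**
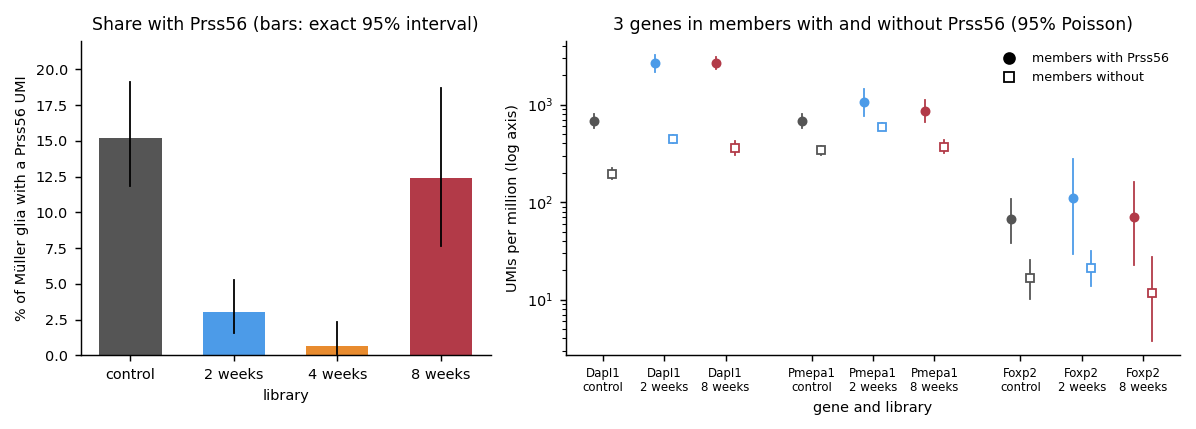
Left, share of Müller glia with a Prss56 UMI in each library with exact 95% intervals. Right, CPM (log axis) of Dapl1, Pmepa1 and Foxp2 in members with (filled) and without (open) a Prss56 UMI, with 95% Poisson intervals. The filled points lie above the open ones for each gene and library drawn.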

How the data were processed

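Retinal cells of 4 of the 5 samples were analysed. Per the submitters' processing notes, reads were processed with Cell Ranger 3.0.1 on build Rnor_6.0. The deposited matrices hold UMI counts per gene and barcode (25399 genes, 128 symbols shared by more than 1 gene), with no normalization by the authors in these counts. Each deposited barcode had at least 500 UMIs. The libraries held 25068331, 34177860, 20151789 and 24604362 UMIs.

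The members and gene lists were chosen with earlier results of these data known. Member UMIs were summed per library and ratios given with 0.5 added to each sum. The 0.5 keeps low genes finite. It was added before scaling to unequal totals, so it does not draw low genes toward 0. A gene with 0 UMIs in both libraries has a ratio of 0.32, 0.44 and 1.53 at 2, 4 and 8 weeks, and ratios of low genes are drawn toward these values. Shares carry exact Clopper-Pearson intervals, and ratios exact conditional binomial intervals. A UMI stands for 1 molecule, and nothing here measures the spread between animals. No doublets were removed in the main values: Scrublet (scanpy 1.11.5) called 2, 1, 0 and 1 barcodes, which is too few to have worked, so a removal of 0.8% per 1000 barcodes was an alternative. Thinning to 1500 UMIs left out 16, 27, 9 and 16 members and 1800, 5737, 4304 and 1226 rods. Rods had at least 20 UMIs of 4 rod marker genes together and 0 of Rlbp1, Arr3, Trpm1, Gad1, Cldn5 and C1qa.

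Named genes were, per diabetic library, the 10 highest and 10 lowest called genes with a mean CPM at least that of other barcodes and no barcode over 20% of the UMIs in the higher library, without ribosomal, mitochondrial or unnamed genes. Added were up to 6 genes of each list described, the genes that chose the members, markers, and the 15 leading genes. Some genes are not reported here. Any other gene, and the choice among these, was made after values were seen. Alternatives were other limits for members, Scrublet scores, members with over 5% rod UMIs left out, subtraction of the library profile scaled to rod RNA, thinning, TMM scaling (edgeR 4.0.16 in R 4.3.3), other CPM minimums and folds, and each gene's richest barcode left out. The scripts were tested on simulated data.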

Additional observations from a re-analysis of the deposited data

Results flagged for a closer look

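RT1-CE5, a histocompatibility gene, had log2 ratios to control of 1.79, 1.32 and 2.85 in Müller glia at 2, 4 and 8 weeks, and of -0.24, -0.33 and -0.13 in rods of the same libraries. It stood out because every diabetic library was above control in Müller glia and below control in rods. The median of all genes in rods was -0.25 at 2 weeks, close to its rod ratio there, and in all other kept barcodes RT1-CE5 stood at 30.1, 25.2, 25.7 and 34.1 CPM, above control at 8 weeks. The difference between the cell types was not tested, since each group had 1 library. Its near-identical relatives in the RT1 region make the assignment of UMIs uncertain.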

How the results depend on the processing

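No paired analysis was possible because each group had 1 analysed library. The number of genes called was 870, 820 and 441 at 2, 4 and 8 weeks, and it was 206, 147 and 87 over genes with a mean of at least 100 CPM, 263, 234 and 177 at 2-fold, 71, 34 and 36 at 3-fold, and 270 at 8 weeks in thinned members; these have fewer genes, UMIs or a higher limit by construction. With each gene's richest barcode left out, 8 weeks had 200 higher and 162 lower. The share of Müller glia in control, 2, 4 and 8 weeks was 4.57, 2.65, 3.25 and 2.40% with up to 40% mitochondrial UMIs. At 2 weeks it was 4.39% with at most 10%, 3.58% with at least 4 UMIs of Rlbp1 and Glul and 2.30% with at least 16, which gave 2.61% at 8 weeks. With the library profile subtracted, which removed 18.5, 36.4, 17.9 and 25.6% of member UMIs, directions reversed for Cdkn1a (-4.81), Hspa1b (-4.38), Mt-nd6 (-3.95), Pkm (-3.62) and Sesn2 (0.086) at 2 weeks. At 8 weeks they reversed for Dusp1 (1.64), Mt-cyb (-0.42), Mt-nd2 (-0.45), Mt-nd4 (-3.58), Mt-nd4l (-0.20) and the mitochondrially encoded median (-0.42). In thinned members Cdkn1a (-0.047), Sesn2 (0.073) and the hypoxia median (-0.039) reversed at 2 weeks and Junb (0.26) at 8 weeks. Slc6a9 reversed at 8 weeks without the top Scrublet scores (-1.33), and Tf at 4 weeks with up to 40% mitochondrial UMIs (0.12). The cause was not tested. Of 244 called values of listed and named genes, 134 were called again in thinned members, 190 with the profile subtracted, 216 under TMM scaling, and 206 to 238 under the other alternatives to the members. With members that carried another cell type's RNA left out, an alternative chosen after seeing the data, 815, 811 and 392 genes were called.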
